A study of Mus musculus with 9 samples.

Results

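The transcription factor NF-kappaB and its inhibitors were followed through 10 genes, taken as the rows of the deposited tables whose symbol equals a member name. They encode the DNA-binding subunits Nfkb1, Nfkb2, Rel, Rela and Relb, the cytoplasmic inhibitors Nfkbia, Nfkbib and Nfkbie, and the nuclear inhibitor-like proteins Nfkbiz and Bcl3. All 10 were found among the 50600 genes of the tables, and all 10 passed the filter on low counts that left 11916 genes for testing. The samples were mouse macrophages of the RAW-Blue line, whose secreted reporter is driven by NF-kappaB and AP-1, and all groups were grown with Normocin, Zeocin, penicillin and streptomycin. The LPS group received lipopolysaccharide, the outer membrane component of Gram-negative bacteria sensed by Tlr4, at 1 µg/ml for 24 hours, and the None group was not stimulated, with 3 replicates in each. A further group (LPS-PjELNs) was given Peucedanum japonicum exosome-like nanovesicles 16 hours ahead of LPS; it was not analysed here, since its labels name no column of the tables. All samples come from the same cell line at a single time after LPS, and nothing in the labels says that replicates were separate cultures, so the p-values speak for the spread among these libraries alone, which may be technical.

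NF-kappaB proteins are dimers of subunits that share a Rel homology domain. In resting cells the dimers are held in the cytoplasm by IkappaB proteins, and Tlr4 signalling activates a kinase complex that marks IkappaB for degradation and lets the dimers enter the nucleus. The genes of several inhibitors and subunits are themselves known targets of NF-kappaB, which gives the pathway its feedback. The unprocessed products of Nfkb1 and Nfkb2 (p105 and p100) carry an inhibitory ankyrin domain and are cut to the subunits p50 and p52, and mRNA levels do not show that processing.

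Libraries held 14650825 to 17665201 counts. The macrophage label was borne out by 9 of 10 markers above 1 TPM, the exception being Mertk at 0 to 0.03 TPM. The marker sum was 18917 to 20553 TPM in LPS and 13487 to 15773 TPM in None. Most of it was Lyz2, at 15557 to 17195 TPM in LPS and 9185 to 10593 TPM in None. Lyz2, Itgam and Fcgr1 were higher in every LPS library than in any None library. Csf1r, Ptprc and Tyrobp were lower, and the ranges of Adgre1, Cd68 and Spi1 overlapped. T cell, epithelial, fibroblast, endothelial and mast cell markers each summed to at most 0.2 TPM in any library. Of 3 neutrophil markers, Ly6g was at 0 counts and S100a9 at up to 0.64 TPM, while S100a8 lay at 66.2 to 84.2 TPM in LPS and 0.57 to 1.2 TPM in None, and the part of that difference in the results was not tested. The B cell gene Ms4a1 was at 0 counts, and Cd79a reached 1.44 TPM in LPS and 0.28 TPM in None.

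Promoter sequence is shown first because the consensus of the kappaB element, the DNA site that these subunits bind, is matched near start sites of several members. RefSeq windows of 250 bases before and 50 after a start site (GRCm38.p6) were at hand for 7 of the 10 genes, namely Nfkb2, Rel, Rela, Nfkbia, Nfkbib, Nfkbie and Bcl3, with 3 start sites for Nfkb2. The 10-base kappaB consensus was searched on both strands, and capitals mark the matches, merged where matches on the strands overlap. Each sequence is given in the direction of its gene, with position 1 at the start site and no position 0, and the stretch stops where an annotated exon begins.
Nfkbia, chr12:55492648-55492897, minus strand, positions -250 to -1: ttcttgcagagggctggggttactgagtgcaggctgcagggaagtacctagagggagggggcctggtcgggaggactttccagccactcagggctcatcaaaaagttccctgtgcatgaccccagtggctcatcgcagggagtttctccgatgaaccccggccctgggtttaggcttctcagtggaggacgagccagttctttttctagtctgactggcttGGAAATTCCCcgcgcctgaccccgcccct
Nfkbie, chr17:45555450-45555699, plus strand, positions -250 to -1: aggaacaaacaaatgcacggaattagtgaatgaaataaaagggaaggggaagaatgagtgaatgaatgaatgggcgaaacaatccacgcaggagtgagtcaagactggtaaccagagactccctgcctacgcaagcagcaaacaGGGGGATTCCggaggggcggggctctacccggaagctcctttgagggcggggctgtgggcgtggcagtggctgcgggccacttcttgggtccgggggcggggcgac
Rel, chr11:23770971-23771219, minus strand, positions -250 to -2: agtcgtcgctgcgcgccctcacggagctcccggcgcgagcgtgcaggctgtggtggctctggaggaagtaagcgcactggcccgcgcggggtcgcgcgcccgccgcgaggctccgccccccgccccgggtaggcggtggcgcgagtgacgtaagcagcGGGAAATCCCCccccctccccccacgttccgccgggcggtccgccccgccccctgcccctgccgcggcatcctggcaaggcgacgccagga
Rela, chr19:5637291-5637482, plus strand, positions -250 to -59: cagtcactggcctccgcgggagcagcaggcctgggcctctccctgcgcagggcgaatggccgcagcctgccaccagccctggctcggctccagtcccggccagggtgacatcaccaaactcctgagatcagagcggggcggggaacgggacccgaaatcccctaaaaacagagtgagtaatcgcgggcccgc

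In Nfkb2 and Bcl3 the matches lie within annotated exons near a start site, so only stretches of 30 bases round 3 of them are shown.
Nfkb2, first start site, chr19:46304688-46304717, plus strand, positions -49 to -20: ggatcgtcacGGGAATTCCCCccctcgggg
Nfkb2, second start site, chr19:46305695-46305724, plus strand, positions 1 to 30: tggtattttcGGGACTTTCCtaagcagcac
Bcl3, chr7:19822734-19822763, minus strand, positions -8 to 22: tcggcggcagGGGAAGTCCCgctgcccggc

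The windows of 5 of the 7 genes held the consensus, against 5.14% of the 27025 genes with a window and 4.51% of the 32851 windows. In Nfkbia it lay at positions -29 to -20 on the opposite strand, and in Nfkbie at -106 to -97. In Rel, matches on both strands overlapped at positions -92 to -82. At the first start site of Nfkb2 such an overlapping cluster lay at -39 to -29 and a further match at -11 to -2. The second start site had matches at -236 to -227 and at 11 to 20, the second of which lies at -225 to -216 of the third start site. The windows of Rela and Nfkbib held no match, which says only that the consensus is not in these letters. Matches are a description of sequence, since binding was not measured.

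**Figure D1:**
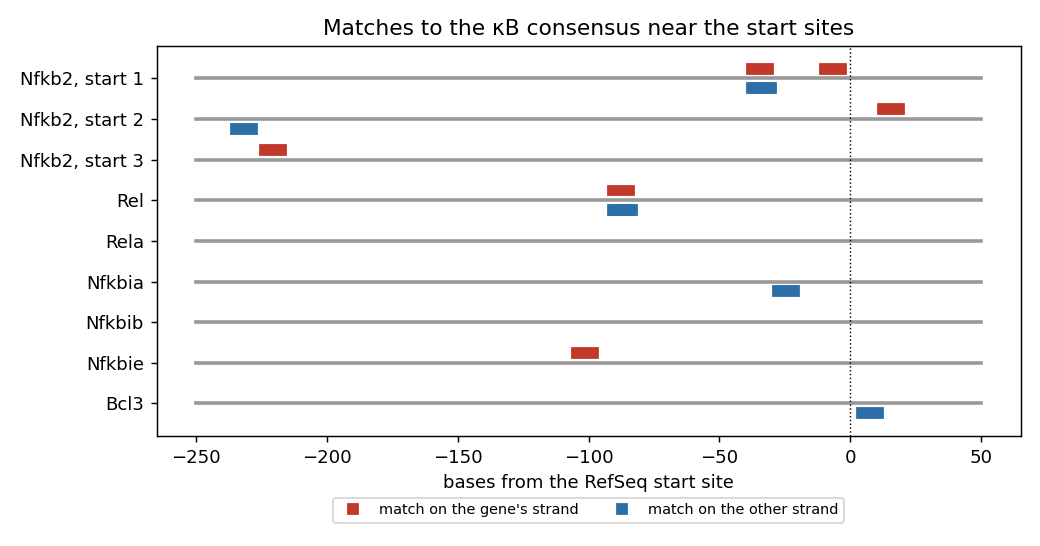
Positions of kappaB consensus matches in 9 windows of 7 genes, in bases from the RefSeq start site (dotted line), with grey bars for the windows and coloured boxes for matches on the gene's strand (above the bar) and on the other strand (below). Rela and Nfkbib have no box, and the Nfkbia box lies at -29 to -20.

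The comparison of LPS with None asked how the transcripts of the factor and its inhibitors stood after the stimulus. The largest rises were those of the nuclear members Nfkbiz (12.8-fold) and Bcl3 (9.23-fold) and of the cytoplasmic inhibitors Nfkbia (11.3-fold) and Nfkbib (4.71-fold). The subunit transcripts that rose did so by 1.89-fold to 3.50-fold, and the inhibitor Nfkbie, at 2.28-fold, lay within that range. Rela, the main activating subunit, was the member that did not rise. Of the 10 members 9 were called higher, 0 lower and 1 (Rela) was not called, by the quasi-likelihood test of edgeR after Benjamini-Hochberg adjustment over every gene tested. Across all genes tested 34% were called higher, 35.1% lower and 69.1% in either direction at an adjusted p under 0.05, and 11.1% were called and at least 2-fold higher. The median log2 fold change was 1.67 over the members and -0.03 over all genes tested. In all 10 members the CPM values of the LPS and None libraries did not overlap, as in 73.6% of genes tested, and 9 of them were higher in LPS, as in 35.7% of genes tested. The median log2 fold change was 3.44 for the nuclear members, 2.24 for the cytoplasmic inhibitors and 1.45 for the subunits. Fewer cells of a type and less RNA per cell cannot be told apart in such bulk samples. Scaling by library totals moved all genes by a median of -0.26 and TPM values by -0.20 on the log2 scale, with 30.6% and 35.2% of called genes higher, against 49.2% with TMM scaling, so changes of that size are read relative to the shift.

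**Figure D2:**
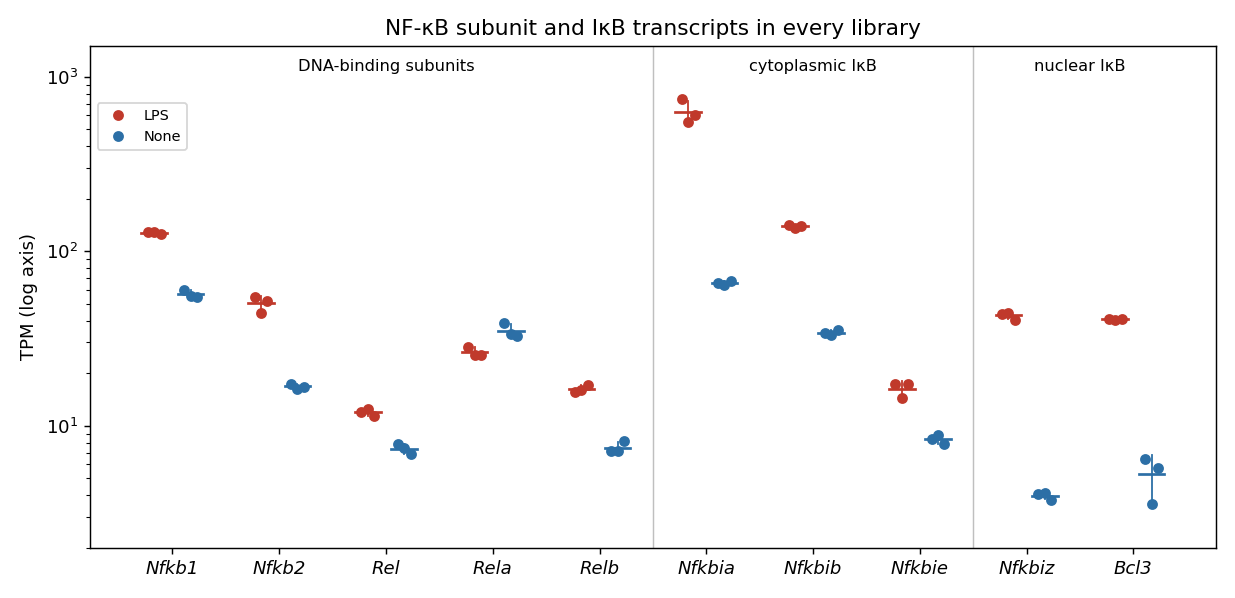
TPM (log axis) of the 10 genes in every library, LPS (red) left of None (blue), with points for libraries, horizontal bars for means and vertical bars for the SD of 3 libraries. Every gene but Rela is higher in LPS, and Nfkbia lies highest in both groups at 630 and 65.7 TPM.

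Among the DNA-binding subunits, Nfkb1 (ENSMUSG00000028163, chromosome 3, 135584655 to 135691546, GRCm38) encodes p105 and, by processing, p50. It stood at 128, 128 and 126 TPM in LPS libraries and 60.2, 55.1 and 54.4 TPM in None libraries. The LPS libraries were nearly alike and all above None. In CPM, scaled by TMM, it averaged 295 ± 4.45 in LPS and 108 ± 3.36 in None (SD, n = 3 each), and its log2 fold change was 1.45 ± 0.07 (SE) with an edgeR adjusted p of 2.31e-09. Nfkb2 (ENSMUSG00000025225, chromosome 19, 46304800 to 46312090) encodes p100 and p52, the subunit of the slower non-canonical arm. It had 54.4, 44.2 and 52.1 TPM in LPS libraries and 17.4, 16.2 and 16.7 TPM in None libraries. LPS replicate 2 was the lowest of its group and still far above None. The log2 fold change of Nfkb2 was 1.81 ± 0.09, the largest of the subunits, with an edgeR adjusted p of 5.94e-09.

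Relb (ENSMUSG00000002983, chromosome 7, 19606217 to 19629438) encodes the usual partner of p52. It had 15.6, 15.9 and 17.2 TPM in LPS libraries and 7.14, 7.17 and 8.14 TPM in None libraries. The groups were well apart, and the log2 fold change was 1.54 ± 0.10 with an edgeR adjusted p of 5.63e-08, or 1.02 on log2(TPM + 1) values. Rel (ENSMUSG00000020275, chromosome 11, 23736847 to 23770970) encodes c-Rel, an activating subunit of lymphoid and myeloid cells. It had 12.04, 12.40 and 11.33 TPM in LPS libraries and 7.84, 7.41 and 6.85 TPM in None libraries. Rel showed the smallest rise of the 9 called members, a log2 fold change of 0.92 ± 0.07 with an edgeR adjusted p of 2.09e-07.

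Rela (ENSMUSG00000024927, chromosome 19, 5637483 to 5648130) encodes p65, which carries the transactivation domain of the classical p50-p65 dimer. It had 28.4, 25.5 and 25.3 TPM in LPS libraries and 38.9, 33.6 and 32.6 TPM in None libraries. All LPS libraries were below all None libraries, narrowly so in CPM, where the highest LPS library held 66.0 and the lowest None library 66.3. The log2 fold change of Rela was -0.19 ± 0.08 with an edgeR adjusted p of 0.0656, so it was not called. It was called lower with scaling by library totals (-0.44, edgeR adjusted p 0.000288), on log2(TPM + 1) values (-0.39, limma adjusted p 0.0051) and without LPS replicate 1 (-0.24, edgeR adjusted p 0.0309), and it was -0.11 without None replicate 1, with an edgeR adjusted p of 0.259.

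The cytoplasmic inhibitor Nfkbia (ENSMUSG00000021025, chromosome 12, 55489410 to 55492647) encodes IkappaBalpha, the fast feedback inhibitor. It had 741, 550 and 599 TPM in LPS libraries and 65.5, 64.1 and 67.6 TPM in None libraries. LPS replicate 1 was the highest, and the spread within LPS (SD 99.4 TPM, n = 3) was far smaller than the distance between the groups. Its log2 fold change was 3.50 ± 0.11 with an edgeR adjusted p of 6.6e-11, above 97.9% of genes tested. By mean TPM it ranked 235 among the 11916 genes tested in LPS and 1750 in None.

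Nfkbib (ENSMUSG00000030595, chromosome 7, 28758251 to 28766640) encodes IkappaBbeta, known for slower degradation and resynthesis. It had 141, 136 and 139 TPM in LPS libraries and 34.0, 33.2 and 35.3 TPM in None libraries. Replicates were close in both groups, and the log2 fold change was 2.24 ± 0.07 with an edgeR adjusted p of 9.92e-11. Nfkbie (ENSMUSG00000023947, chromosome 17, 45555703 to 45563169) encodes IkappaBepsilon, a further inhibitor that holds Rela and Rel dimers. It had 17.3, 14.4 and 17.3 TPM in LPS libraries and 8.39, 8.80 and 7.86 TPM in None libraries. LPS replicate 2 was again lowest in its group, and the log2 fold change was 1.19 ± 0.11 with an edgeR adjusted p of 8.32e-07.

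The nuclear members act on DNA-bound dimers instead of holding dimers in the cytoplasm. Nfkbiz (ENSMUSG00000035356, chromosome 16, 55811375 to 55838899) encodes IkappaBzeta, a coactivator of secondary response genes in mouse macrophages. It had 43.8, 44.3 and 40.5 TPM in LPS libraries and 4.05, 4.10 and 3.75 TPM in None libraries. It was the member with the largest log2 fold change, 3.68 ± 0.08, with an edgeR adjusted p of 4.05e-12. Bcl3 (ENSMUSG00000053175, chromosome 7, 19808462 to 19822770) encodes a cofactor of p50 and p52 homodimers. It had 41.1, 40.4 and 41.0 TPM in LPS libraries and 6.48, 3.57 and 5.71 TPM in None libraries. The LPS libraries were almost equal while None replicate 2 fell below the other None libraries, and the log2 fold change was 3.21 ± 0.15 with an edgeR adjusted p of 1.71e-09.

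**Figure D3:**
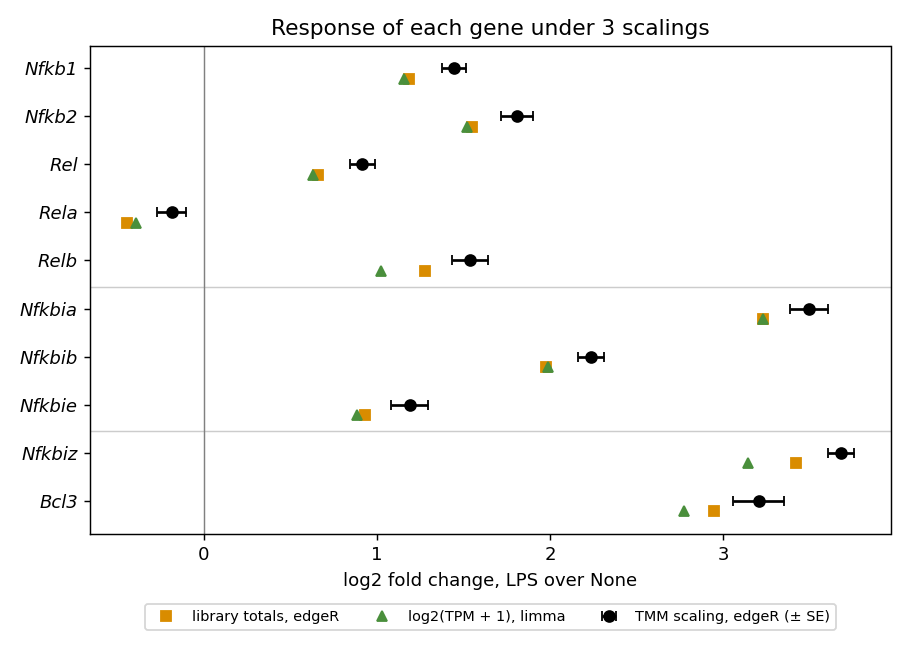
Log2 fold change of LPS over None for each gene (x axis), as black points with SE from edgeR with TMM scaling, orange squares with library totals and green triangles from limma on log2(TPM + 1). Rela lies below 0 in all of them (-0.19, -0.44 and -0.39) and the other 9 genes lie above 0 in all of them.

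On the TPM scale, which allows levels to be set between genes, the order of the members changed. In LPS cells it ran Nfkbia, Nfkbib, Nfkb1, Nfkb2, Nfkbiz, Bcl3, Rela, Nfkbie, Relb and Rel. The ranges of the neighbours Nfkb2 and Nfkbiz, Nfkbiz and Bcl3, and Nfkbie and Relb overlapped. In None cells it ran Nfkbia, Nfkb1, Rela, Nfkbib, Nfkb2, Nfkbie, Relb, Rel, Bcl3 and Nfkbiz. Overlapping neighbours there were Rela and Nfkbib, Nfkbie and Relb, Relb and Rel, and Bcl3 and Nfkbiz. Rela thus stood below both nuclear members in LPS, at 26.4 ± 1.71 TPM against 42.9 ± 2.03 for Nfkbiz and 40.8 ± 0.40 for Bcl3. It stood above both in None, at 35.0 ± 3.4 TPM against 3.97 ± 0.19 for Nfkbiz and 5.25 ± 1.51 for Bcl3 (SD, n = 3 each).

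The make-up of the subunit pool also differed. The 5 subunit transcripts summed to 226 to 239 TPM in LPS libraries and 119 to 132 TPM in None libraries. Nfkb1 held 54.9 ± 1.53% of that sum in LPS and 45.9 ± 0.20% in None, and Nfkb2 held 21.6 ± 1.79% in LPS and 13.6 ± 0.43% in None. Rela held 11.4 ± 0.48% in LPS and 28.4 ± 1.09% in None, and the ranges of these 3 shares did not overlap between groups. Relb held 7.0 ± 0.44% in LPS and 6.1 ± 0.72% in None, with overlapping ranges, while Rel held 5.14 ± 0.31% in LPS and 5.98 ± 0.22% in None, without overlap. The ratio of Nfkb1 to Rela TPM was 4.53, 5.02 and 4.97 in LPS libraries and 1.55, 1.64 and 1.67 in None libraries. Shares and ratios use TPM alone, so they do not depend on how libraries are scaled against each other, and they are given without a test. As shares of summed CPM, which favour long transcripts, Rel held 13.6% in LPS and 16.0% in None, and Relb held 4.75% to 5.37% in LPS libraries and 3.41% to 4.21% in None libraries, without overlap.

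The cytoplasmic inhibitor pool stood 7.25 times as high in LPS as in None, and the subunit pool 1.88 times. The 3 cytoplasmic inhibitor transcripts summed to 700 to 899 TPM in LPS libraries and 106 to 111 TPM in None libraries. For each TPM of subunit transcript there were 3.77, 3.09 and 3.26 TPM of cytoplasmic inhibitor transcript in LPS libraries and 0.82, 0.89 and 0.93 TPM in None libraries. The summed TPM of the cytoplasmic inhibitors thus exceeded that of the subunits in every LPS library and in no None library. That depends on counting Nfkb1 and Nfkb2 as subunits alone, though their unprocessed products carry an inhibitory ankyrin domain. Within the pool Nfkbia held 80.1 ± 2.04% in LPS and 60.7 ± 0.30% in None. Nfkbib held 17.8 ± 1.93% in LPS and 31.6 ± 0.30% in None, and Nfkbie 2.09 ± 0.18% in LPS and 7.72 ± 0.60% in None. Transcript ratios are not protein ratios, which were not measured.

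**Figure D4:**
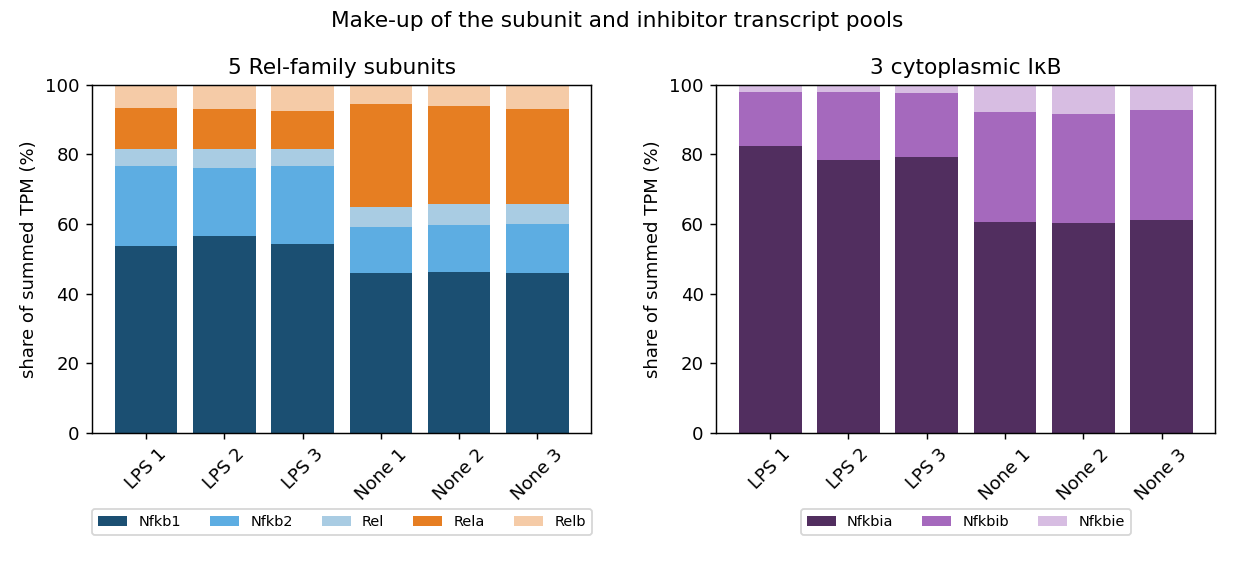
Share of the summed TPM (percent, y axis) held by each of 5 subunits (left) and each of 3 cytoplasmic inhibitors (right), with a stacked bar for each library, LPS libraries left of None libraries. The Rela segment is narrower in LPS (11.4%) than in None (28.4%), and the Nfkbia segment is taller in LPS (80.1%) than in None (60.7%).

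The log2 fold change of Relb was 1.54 with TMM scaling, 1.28 with library totals, 1.02 on log2(TPM + 1) values and 1.11 on log2(TPM + 0.1) values. Its assigned transcript length also differed between the groups, and the part of that in the difference between units was not tested. A gene's count divided by its TPM is proportional to the effective transcript length that the authors' quantification assigned to it, and it was set relative to the library's median over 10265 genes. For Relb this relative length was 0.881 to 0.907 in LPS libraries and 0.731 to 0.792 in None libraries, a ratio of 1.185. The median ratio over all those genes was 1.03, their 5th to 95th percentiles were 0.839 to 1.12, and Relb lay above 97.9% of them. The groups did not overlap for 8 of 10 members, Nfkbia and Bcl3 being the exceptions, nor for 57.6% of all those genes. The ratio of the other members ran from 1.03 for Nfkbib to 1.071 for Nfkb1. Which Relb transcripts differ was not analysed here.

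Other genes of the pathway, on a list of 58 that were all tested, moved in both directions. With TMM scaling 25 rose, 19 fell and 14 were not called, with a median log2 fold change of 0.11. Scaling by totals gave 18 rises and 26 falls, and log2(TPM + 1) values gave 19 rises and 20 falls. Among all 11916 genes tested 34% rose and 35.1% fell with TMM scaling. With library totals 2679 of them rose and 6076 fell, and on log2(TPM + 1) values 2795 rose and 5142 fell. The counts by role that follow are to be read beside the values of the same scaling, and each role holds few genes.

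Upstream of IkappaB, 8 of 18 kinase and adaptor genes rose and 6 fell, or 6 and 9 with library totals. The subunits of the IkappaB kinase complex diverged. Ikbkb, the kinase that acts on IkappaBalpha, fell, with a log2 fold change of -0.56 and 12.9 ± 0.94 TPM in LPS against 21.5 ± 0.32 TPM in None (SD, n = 3 each). Ikbkg, the scaffold NEMO, rose by 0.58, or 0.32 with library totals, with 24.8 ± 4.21 TPM in LPS and 17.3 ± 1.00 TPM in None. Chuk, the kinase of the p100 arm, was not called at 0.06 (-0.19 with library totals), with 29.5 ± 3.50 TPM in LPS and 31.4 ± 2.53 TPM in None. The largest rise was that of the related kinase gene Ikbke, at 1.59 and 27.5 ± 2.30 TPM in LPS against 10.7 ± 0.78 TPM in None. Malt1, a paracaspase of receptor signalling complexes, rose by 0.88. Rnf31, the linear ubiquitin ligase, rose by 0.80 in CPM but was not called on log2(TPM + 1) values (0.43, limma adjusted p 0.0862).

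In the machinery that ubiquitinates IkappaB, 4 of 7 genes rose and 1 fell, or 3 and 2 with library totals and on log2(TPM + 1) values. The F-box genes Fbxw11 and Btrc, whose products recognise phosphorylated IkappaB, had log2 fold changes of 0.61 and 0.51, and the conjugating enzyme gene Ube2r2 had 0.78. On log2(TPM + 1) values they were lower, at 0.19 for Fbxw11, 0.42 for Ube2r2 and 0.23 for Btrc, which then was not called (limma adjusted p 0.0896). In the arm that processes p100, 5 of 8 rose and 2 fell, or 3 and 2 with library totals. Cd40, a receptor that feeds this arm, rose by 2.91 and stood at 10.4 ± 1.00 TPM in LPS and 1.58 ± 0.08 TPM in None. Birc3, a ubiquitin ligase of the complex that degrades its kinase, rose by 2.08, and the adaptor Traf2 by 0.54, or 0.28 with library totals.

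Of 11 brakes on the pathway 3 were higher and 5 lower, or 3 and 7 with library totals. Over all genes tested 34% were called higher and 35.1% lower with TMM scaling. With library totals 2679 of the 11916 genes were called higher and 6076 lower. The ubiquitin-editing enzyme gene Tnfaip3 (A20) rose by 1.49, with 12.8 ± 1.92 TPM in LPS and 5.07 ± 0.41 TPM in None, and its partner Tnip1 by 1.63, with 69.2 ± 5.85 TPM in LPS and 25.3 ± 1.14 TPM in None. Pias1, a SUMO ligase that restrains DNA binding, fell by 0.63. Of 4 other IkappaB-related genes 2 rose and 1 fell. The nuclear inhibitor gene Nfkbid rose by 0.60, and the kappaB-Ras genes, whose products bind cytoplasmic IkappaB, went opposite ways, Nkiras1 at 1.15 and Nkiras2 at -0.82. Nuclear cofactors rose in 3 of 10 and fell in 4, or 1 and 5 with library totals, with the acetyltransferase genes Crebbp (-0.64) and Ep300 (-0.51) lower and Akirin2 (0.59) higher. Other settings moved some of these by over 1.5 times. With library totals Nfkbid was at 0.34, Akirin2 at 0.33, Fbxw11 at 0.35, Btrc at 0.25 and Ep300 at -0.76, and on log2(TPM + 1) values Nkiras1 was at 0.71, Traf2 at 0.33 and Pias1 at -0.38. All named changes in this list had edgeR adjusted p-values under 0.05 except that of Chuk (0.55).

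**Figure D5:**
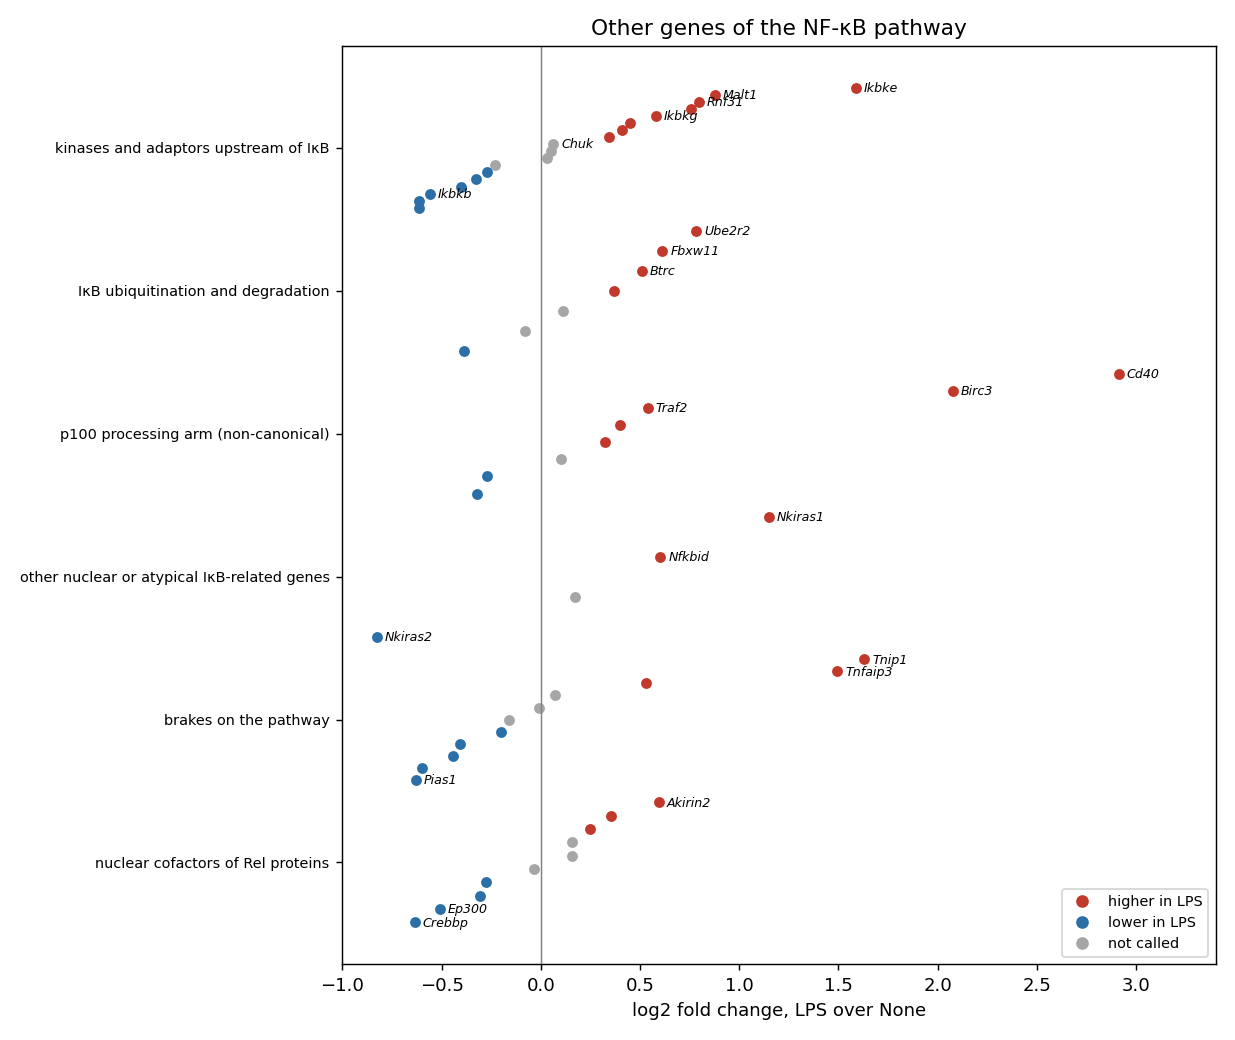
Log2 fold change of LPS over None (x axis) for 58 other pathway genes grouped by role, coloured by the edgeR call with TMM scaling, with names for the genes given in the text. Cd40 (2.91) and Birc3 (2.08) lie farthest to the right and Nkiras2 (-0.82) farthest to the left.

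Genes with the most similar profiles were found by the Euclidean distance over the 6 libraries between log2(CPM + 0.5) values, each centred on its None mean. For Nfkbia the nearest were Fas (distance 0.20) and Ehd1 (0.23), and Ehd1 was also nearest to Nfkbiz (0.20), followed by Pkd1l2 (0.20). Nfkb1 was followed by Plet1 (0.11) and Cd44 (0.13), Nfkb2 by Rras (0.12) and Zbtb7b (0.12), Relb by Lrrc25 (0.08) and Pdia5 (0.11), and Rel by Cmip (0.07) and Adar (0.07). Nfkbib was followed by Zswim4 (0.13) and Jag1 (0.15), Nfkbie by Tap2 (0.09) and Ubtd1 (0.11), and Bcl3 by Nkain1 (0.45) and Cpd (0.53). The added 0.5 shrinks the difference of low values, which bears on 3 of these. Plet1, at 0.93 CPM in LPS and 0.02 CPM in None, had a fitted log2 fold change of 5.23, against 1.45 for Nfkb1. Nkain1, at 4.84 CPM in LPS and 0.16 CPM in None, had 4.88, against 3.21 for Bcl3. Fas, at 14.74 CPM in LPS and 0.94 CPM in None, had 3.95, against 3.50 for Nfkbia. The distances describe likeness of level changes in these libraries and nothing else.

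Shared sequence may limit some counts. Overlaps were taken from a GENCODE annotation whose gene bounds differ in part from those of the deposited tables. Nfkb2 starts at 46304320 in GENCODE and 46304800 in the tables, and Nfkbib ends at 28767512 and 28766640. GENCODE places AC114539.1 (531 shared exon bases) and Psd (299 bases) on the strand opposite Nfkb2. It places Sirt2 (42 bases) and Ccer2 (314 bases) opposite Nfkbib, and Gm16175 (161 bases) opposite Bcl3. Whether these bases belong to the counted genes was not tested. The sources used here do not say whether strand was kept, and no count for AC114539.1 was used here, so its part in the Nfkb2 counts was not tested. Over all libraries of a group, Psd held 37 counts in LPS and 57 in None against 5620 and 2193 for Nfkb2, and Ccer2 held 1 in LPS and 0 in None against 5413 and 1572 for Nfkbib. Sirt2 held 3929 counts in LPS and 4210 in None, and Gm16175 held 0 in LPS and 0 in None.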

How the data were processed

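Total RNA of RAW-Blue cells was sequenced as paired 100-base reads and filtered with SOAPnuke, per the labels' protocols. STAR 2.7.10a, RSEM 1.3.1 and the build GRCm38 are credited to the submitters' processing notes. The deposited tables hold estimated counts and TPM per gene, which the authors scaled for length and library, and up to 4.07% of the estimated count values are not whole. Column names matched 6 libraries, and 12 other library columns matched no label and were not used. The tables count gene starts from 0, and positions are given counting from 1.

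Counts were rounded, filtered with filterByExpr (minimum 10, total 15), scaled by TMM and tested two-sided with edgeR 4.0.16 (glmQLFit, glmQLFTest) in R 4.3.3, with group as the single term, Benjamini-Hochberg adjustment over 11916 genes with calls made under 0.05. The common biological coefficient of variation came to 8.32%. SEs are the log2 fold change over the root of the F statistic. Genes without a symbol held 0.0231% to 0.0318% of counts and were kept. The steps were also run on simulated data in which few genes changed, equally many up and down. That run does not bear on scaling where most genes change. Replicates of a group differed by more than sampling noise (chi-square per degree of freedom 3.60 to 19.2). Alternatives were RLE factors, library totals, DESeq2 1.42.0, other filters, limma 3.58.1 on TPM with pseudocounts of 1 and 0.1, a replicate block and leaving out each library.

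The members and lists were chosen with earlier results of these data known. All members are named, with up to 3 called pathway genes of largest change per role, Chuk, Ikbkb and Ikbkg always, and the 2 nearest profiles per called member.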

Additional observations from a re-analysis of the deposited data

How the results depend on the processing

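Across 15 alternatives the 9 members called higher kept that direction and call. Their number was 9 under each alternative, and the number of members called either way was 9 or 10, the difference being Rela called lower. The count of all genes called higher in LPS was 2679 with library totals, against 4052 with TMM scaling, because that scaling shifts every gene down. Leaving out each library in turn gave 7507 to 8103 genes called, 3722 to 4004 higher and 3785 to 4099 lower, 24 to 27 pathway genes higher and 15 to 19 lower. The labels do not say that replicate numbers mark a shared culture or day, so the numbers were not taken to pair samples. Deviations of same-numbered LPS and None libraries had correlations of 0.18, 0.134 and -0.0714. None replicates 1 and 2 each correlated best with the same-numbered LPS library, and None replicate 3 with LPS replicate 2 (0.209). Deviations from means of 3 libraries cannot settle whether samples were paired. With the replicate block 8362 genes were called against 8232, and Rela was called lower (-0.18, edgeR adjusted p 0.0326). With 3 libraries a group and 1 time point, the data give no course over time, and an exact permutation test of a single value could not go below a p of 0.10.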

Other observations

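Relb and Bcl3 lie on chromosome 7 with 179023 bases between them, and both were called higher in LPS. Of 5 tested genes wholly between them, 1 was called higher and 3 lower, with a median log2 fold change of -0.22. Over all genes tested 34% were called higher and 35.1% lower, with a median of -0.03. The 5 genes are too few to tell their counts from those shares.

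The kappaB consensus was also counted by response over all tested genes with a promoter window. It was present for 9.44% of 964 genes called and at least 2-fold higher in LPS, 7.22% of 3103 genes called higher, 5.48% of 3230 called lower and 5.4% of 2685 not called. These shares are a description of the windows and were not tested.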
